A study of Rattus norvegicus with 24 samples.

Results

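The whisker follicle of rats that self-administered methamphetamine (MA) was compared with that of rats that self-administered saline (SA), across all genes measured there. The members were the rows with a mean FPKM of at least 1 over the 12 whisker follicle libraries, 6 MA and 6 SA, which took 9138 of the 17711 rows of the table and 12 of its 24 libraries. FPKM counts the fragments of a gene relative to its transcript length and to all mapped fragments. The limit fell between a mean of 1.00024 and a mean of 0.999376. All animals were male Sprague-Dawley rats that learned to press a lever for food pellets, received a jugular catheter and then pressed for intravenous infusions in daily sessions of 2 h over 16 days. MA rats received 0.05 mg/kg of methamphetamine per infusion and SA rats received saline on the same schedule, so food training, surgery and lever access were shared. The RNA of the other 12 libraries came from the striatum. The labels name 1 rat for each library, and the number of follicles taken is not stated in the sources used here. A library is named by the index of 0 to 5 in its column, which no source ties to a rat number. The p-values measure the spread between these libraries.

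The whisker follicle, or vibrissa, is a large sensory hair follicle. At its base, matrix cells divide and then differentiate into the concentric layers of the hair shaft and of the inner root sheath, while the outer root sheath surrounds both. Matrix cells use Wnt and bone morphogenetic protein signals and the transcription factors Lef1 and Foxn1 to switch on hair keratins, which then fill the cells of the cortex and cuticle. These cells stop making most other RNAs as they harden.

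The labelled tissue was checked against its defining markers. All 6 markers of the hair cortex and cuticle averaged 682.6 to 26460 FPKM over the 12 libraries, the 5 found of the inner root sheath 163.6 to 13120 and the 4 found of the outer root sheath 436.7 to 30020. Krt86, a hair keratin, lay between 8437 and 42430 in the whisker follicle and between 0.08503 and 10.61 in the striatum. The neuronal gene Snap25 averaged 0.1453. Markers of vessels, mast cells and dermal fibroblasts were low or listed at 0: the 4 of the endothelium averaged 0 to 0.3847, Cpa3, Cma1, Col1a2 and Lum were listed at 0 in all 12 libraries, and Col1a1 averaged 1.597. A listed 0 can be a failed estimate, and Col1a2 stood at 0 in the striatum too, where Col1a1 reached 12.18, so these zeros do not show that a cell type was missing. The summed FPKM was 1005810 to 1524570 over SA and 774567 to 1387580 over MA (exact permutation test, two-sided, p = 0.301), and the 10 most abundant rows took 27.1% to 44.0% of it. The depth is unknown, although values that stand for single fragments put the libraries within 0.750 to 1.57 of the depth of SA library 1.

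SA library 0 stood apart from the SA libraries it is labelled with. Over log2(FPKM + 1) of the 9138 rows, its median correlation across rows was 0.895 with the other SA libraries and 0.956 with the MA libraries, and its nearest library was MA library 1 (r = 0.970). The other 11 libraries had a median correlation of 0.952 to 0.975 with all libraries. Rows are not independent replicates, so these values describe the libraries only. SA library 0 also had the most rows at an FPKM of at least 1, at 9373 against 8661 to 8909 in the other SA libraries and 8915 to 9274 in MA. With it, MA and SA did not differ in that number (exact permutation test, p = 0.169), and without it MA had more (p = 0.00433). The main results below are given with all 12 libraries and without SA library 0. That library was known to be distant from earlier results of these data, so values without it are set beside those of all 12 and do not replace them.

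**Figure D1:**
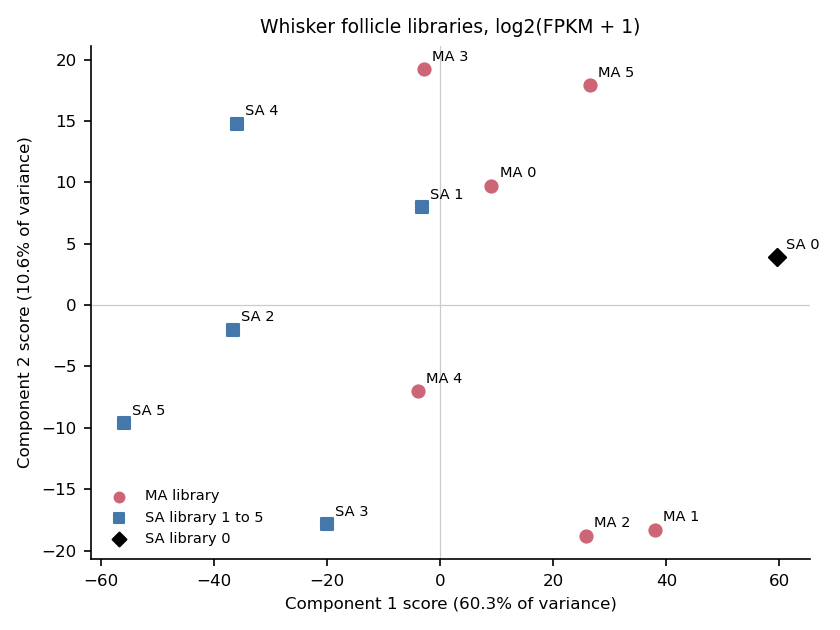
Scores of the 12 whisker follicle libraries on components 1 and 2 of log2(FPKM + 1) over 9138 rows, centred per row, 1 point per library. SA library 0 lies at 59.7 on component 1, beyond all MA libraries (-4.0 to 37.9), while SA libraries 1 to 5 lie at -56.0 to -3.2.

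On the first principal component, which held 60.3% of the variance, the order of the libraries was not that of the labels. SA libraries 5, 2, 4 and 3 scored -56.0, -36.7, -36.0 and -20.0, and SA library 1 scored -3.2. The MA libraries scored -4.0 to 37.9, and SA library 0 scored 59.7. MA libraries 3 and 4 and SA library 1 lay together near the middle. The second component held 10.6% and did not set the groups apart.

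With all 12 libraries, no gene was differentially expressed. A differentially expressed gene (DEG) was one whose limma p, adjusted after Benjamini-Hochberg, was under 0.05 and whose fold reached 1.5 on the log2(FPKM + 1) scale. The smallest adjusted p was 0.340. At an unadjusted p under 0.05 there were 953 genes (10.4% of those tested), 480 higher in MA (5.25%) and 473 lower (5.18%). The median log2 fold change of all genes was -0.01. With libraries weighted by how well they fit their group, SA library 0 received a weight of 0.145 against 0.684 to 3.04 for the others, and limma called 1160 DEGs. In 44 genes the groups of 6 did not overlap at all: every MA library was above every SA library in 18 (0.197% of genes) and below in 26 (0.285%). In these genes SA library 0 lay on the SA side of every MA library, and they are described first. None of them passed the adjusted threshold with 12 libraries, and several were picked out here because their groups do not overlap.

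The transferase Ogt, which attaches O-linked N-acetylglucosamine to proteins, had the smallest p. It lay at 6.13 to 9.55 FPKM in SA libraries 1 to 5 (median 7.46), at 8.33 in SA library 0 and at 3.91 to 5.30 in MA (median 4.66). SA library 0 was among the highest of all. The log2 fold change was -0.63 (standard error 0.11, limma adjusted p = 0.340). Without SA library 0 it was -0.61 (adjusted p = 0.0173). Rsrp1, an arginine- and serine-rich protein, lay at 39.9 to 51.7 in SA libraries 1 to 5 (median 46.6), at 34.8 in SA library 0 and at 18.3 to 32.9 in MA (median 23.6). SA library 0 was the lowest SA library but still above MA. Its log2 fold change was -0.85 (standard error 0.16, limma adjusted p = 0.343), and -0.92 without SA library 0 (adjusted p = 0.0137).

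The linker histone H1f0, which accumulates in differentiated cells, was at 241 to 301 in SA libraries 1 to 5 (median 276), at 312 in SA library 0 and at 362 to 505 in MA (median 406). All MA libraries exceeded all SA libraries. Ddit4, a stress-induced inhibitor of the growth kinase mTORC1, lay at 55.4 to 79.0 in SA libraries 1 to 5, at 75.0 in SA library 0 and at 81.5 to 153 in MA (median 96.0). Nfkbia, the inhibitor that holds NF-kappa-B in the cytoplasm, lay at 24.4 to 32.2, at 30.4 and at 35.5 to 64.3 (median 45.2). In both, MA libraries spread more widely than SA libraries. The log2 fold changes with 12 libraries were 0.57, 0.62 and 0.66 for H1f0, Ddit4 and Nfkbia (limma adjusted p = 0.413, 0.465 and 0.465), and all 3 were DEGs without SA library 0 (adjusted p = 0.0173, 0.0203 and 0.0223).

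Genes of the same pathway did not always lie on the same side. Srebf1, the transcription factor that drives lipid synthesis genes, was at 12.2 to 19.3 in SA libraries 1 to 5, at 18.2 in SA library 0 and at 19.9 to 32.5 in MA (log2 fold change 0.51). Its target Fasn, the fatty acid synthase, lay in the opposite order, at 14.5 to 17.6, at 19.2 and at 10.03 to 13.6 (log2 fold change -0.47). Neither pair of groups overlapped. The desmosomal plaque protein Pkp2 was at 2.91 to 3.99 in SA libraries 1 to 5, at 3.57 in SA library 0 and at 1.94 to 2.57 in MA, whereas the desmosomal cadherins Dsc3 and Dsg3 were called higher without SA library 0. The transcription factor Egr2 was at 17.8 to 23.8, at 19.3 and at 12.6 to 17.6, on the opposite side from its relatives Egr1 and Egr3, whose log2 fold changes were 0.99 and 0.97 with 12 libraries.

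Others of the 44 were the polyubiquitin gene Ubb, which lay at 203 in SA library 0, at 245 to 289 in SA libraries 1 to 5 and at 310 to 801 in MA, and the initiation factor subunit Eif3h, at 6.01, at 2.32 to 14.6 and at 15.6 to 24.8. In both, SA library 0 lay on the far side of SA from MA or inside the SA range. Genes below in every MA library included the scaffold protein Ahnak (18.5 to 26.1 in MA, 27.5 to 41.2 in all SA), the purine nucleoside phosphorylase Pnp (35.2 to 43.2 and 44.3 to 64.1), the RNA export receptor Nxf1 (39.8 to 49.3 and 51.2 to 66.5) and the stretch-gated channel Piezo1 (7.89 to 9.37 and 9.52 to 13.01). Genes above in every MA library included the paraspeckle protein Pspc1 (8.17 to 12.5 and 5.44 to 8.02), the spliceosome subunit Sf3b4 (57.0 to 70.6 and 38.9 to 56.0) and the elongation factor kinase Eef2k (16.6 to 21.7 and 14.1 to 16.2). The log2 fold changes of the last 7 were -0.58 to 0.54 with 12 libraries.

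**Figure D2:**
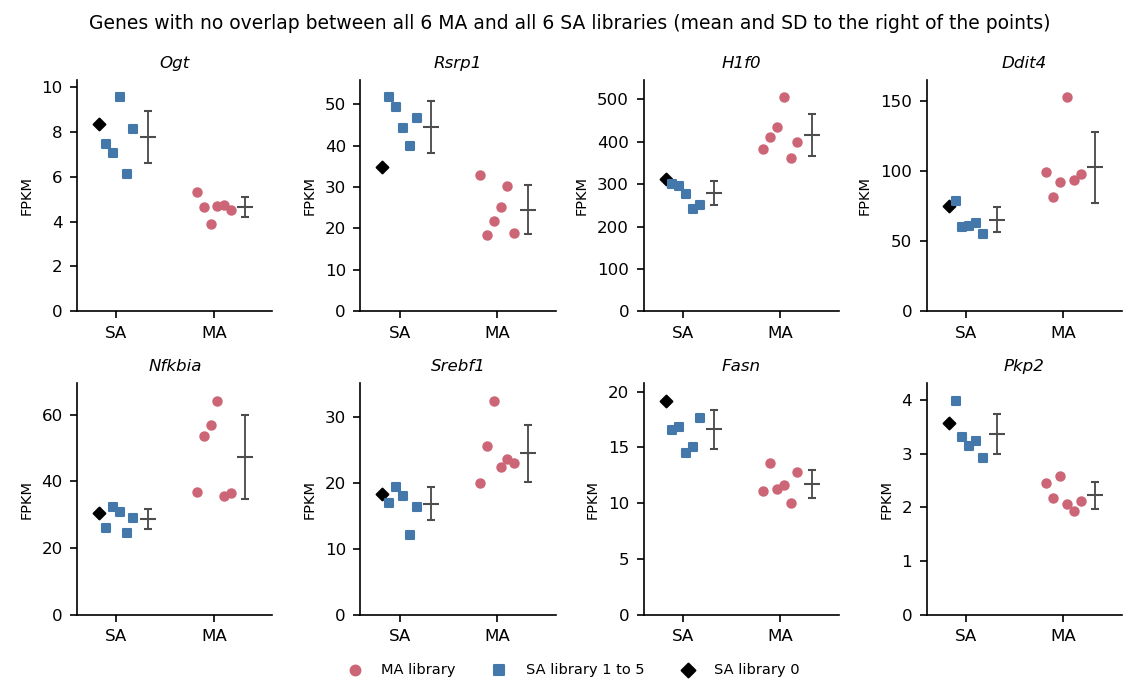
FPKM (linear axes from 0) of 8 genes in the 6 SA and 6 MA whisker follicle libraries, 1 point per library, with the mean and SD of each group of 6 beside the points. In each panel the black SA library 0 lies with the other SA libraries, for instance at 8.33 for Ogt against 3.91 to 5.30 in MA.

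Without SA library 0, limma called 1219 DEGs among the same 9138 genes (13.3%), 676 higher in MA (7.4%) and 543 lower (5.94%). At an unadjusted p under 0.05 there were 3658 (40%), 1737 higher in MA (19%) and 1921 lower (21%). The median log2 fold change of all genes was -0.02. The groups of 6 MA and 5 SA did not overlap in 249 genes that were higher (2.72%) and 413 that were lower (4.52%). This number of DEGs depended on single libraries beyond SA library 0: it was 96 when SA library 2 was also left out, 308 without SA library 5, 459 without SA library 4, 477 without MA library 1, 559 without MA library 2 and 619 without MA library 5, and 1093 to 1800 without any of the other 5. Among genes that averaged 5 FPKM or more, 422 of 944 DEGs were higher, against 55.5% of the 1219. When genes were placed in 10 bins by genomic span and the median of each bin was set equal between libraries, a setting chosen after the data were seen, 648 of 952 (68.1%) were higher.

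SA library 0 was on the MA side in nearly all of these DEGs. It was nearer the MA mean than the mean of the other SA libraries in 1201 of the 1219 (98.5%) and at or past the MA mean in 1152 (94.5%), and it lay within the range of the other SA libraries in 20. Over all 9138 genes it was nearer the MA mean in 80.8%. When each other library was left out of the 12 in turn, and the measure was taken over the genes with a fold of at least 1.5 in that fit (420 to 985 genes), the share nearer the other group was 6.67% to 63.9%. None of those fits had a DEG, so their genes met no limit on p. SA library 0 also stayed in the SA mean of each. These shares are therefore not measured as the 98.5% is. The 18 DEGs in which SA library 0 was nearer the mean of the other SA libraries were Ogt, Rsrp1, H1f0, Ddit4, Nfkbia, Ubb, Eif3h, Trib3, Tspan13, Chst8, Samd5, Wfdc21, Ccl27, Lurap1, Ropn1l, Zfp455, RT1-M6-2 and RGD1310587. In the account below, "called" means a DEG without SA library 0, and the value of SA library 0 stands beside it. Calls in a list stand against 7.4% of all genes called higher and 5.94% called lower.

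Hair shaft keratins had a higher list score in every MA library than in SA libraries 1 to 5, and the highest in SA library 0. All 11 measured members had a log2 fold change above 0 with 12 libraries and without SA library 0 (48.3% and 48.2% of all genes did), and 6 were called higher and none lower. Their median log2 fold change was 1.33 with 12 libraries and 1.77 without SA library 0. The list score, which is the median log2 deviation of the members from their mean over the 12 libraries, was 0.18 to 0.77 in MA, -1.51 to -0.01 in SA libraries 1 to 5 and 1.37 in SA library 0. The summed FPKM of the members, which the most abundant ones dominate, overlapped, at 36518 to 75422 in MA, 16350 to 49325 in SA libraries 1 to 5 and 79604 in SA library 0. These sums, counts and scores leave out the joined entry of Krt31, Krt33a, Krt33b and Krt34 described below, which lay the other way. In RNA of a whole follicle, more cells of a layer and more RNA per cell cannot be told apart.

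Krt84, a hair-type keratin, had the largest log2 fold change of the group. It lay at 9.73 to 67.9 FPKM in SA libraries 1 to 5 (median 37.4), at 1212 in SA library 0 and at 187 to 1767 in MA (median 484). All MA libraries were above SA libraries 1 to 5, and SA library 0 was above 5 of the 6. The log2 fold change was 2.96 with 12 libraries (standard error 0.95, limma adjusted p = 0.465) and 3.82 without SA library 0 (standard error 0.62, adjusted p = 0.0137). Krt83, a cortex keratin, lay at 230 to 2616, at 11633 in SA library 0 and at 3161 to 9890 in MA, and here SA library 0 was the highest of the 12. Krt36 lay at 112 to 336, at 1300 and at 454 to 1450. Krt85, Krt82 and Krt39 were also called higher, with log2 fold changes of 2.51, 1.77 and 2.14 without SA library 0 and 1.88, 1.33 and 1.39 with 12 libraries. The most abundant member, Krt86, was not called (log2 fold change 1.01 without SA library 0, adjusted p = 0.0739). Krt81, Krt83 and Krt86 are near-identical copies, so reads may have been divided between them. A joined entry of Krt31, Krt33a, Krt33b and Krt34 stood at 0 in SA library 0 and in every MA library, where other hair keratins were abundant. In SA libraries 1 to 5 it stood at 10772.5 to 41216.2 FPKM. It is not among the 11 members, so their summed FPKM leaves out a row of this size. The entry was called lower by limma without SA library 0, and no fold is given for it.

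Promoters of hair shaft genes are shown because Lef1, whose motif is known from hair keratin promoters, was also called (described below). Of 11 hair shaft keratins and 8 keratin-associated proteins, 8 and 8 had an entry in the RefSeq table of GRCr8, and the 250 bases before the start were searched on both strands for the TATA box TATAAA and the LEF1 motif CTTTGAA, chosen after the values were seen. The letters TATAAA stood in 5 and 6 of them (12.9% of all 33469 promoters) and the LEF1 motif in 4 and 4 (4.68%). Letters were counted at any place in the 250 bases, so a match need not lie where a TATA box works. TATAAA began 209 bases before the start in Krt84, on the strand opposite the gene, and 168 before it in Krt39. In Krtap1-5 the nearest match began 27 bases before the start. A match of letters is a description and not a bound site. Below, capitals mark these letters on either strand. The Krtap1-5 window comes from chr10:85039870-85040094, Krt39 from chr10:84976787-84976877, Krt36 from chr10:85540635-85540653, Krt85 from chr7:134515991-134516013 and Krt84 from chr7:134535804-134535825, all on the minus strand.
Krtap1-5: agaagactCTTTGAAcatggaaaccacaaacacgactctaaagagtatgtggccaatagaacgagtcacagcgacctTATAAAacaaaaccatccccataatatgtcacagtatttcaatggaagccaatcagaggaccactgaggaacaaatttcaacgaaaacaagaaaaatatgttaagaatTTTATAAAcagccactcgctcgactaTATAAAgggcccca
Krt39: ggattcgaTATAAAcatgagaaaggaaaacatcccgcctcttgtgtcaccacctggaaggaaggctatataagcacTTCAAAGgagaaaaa
Krt36: gactCTTTGAAgtggcaat
Krt85: gtaaagagCTTTGAAgatgaaaa
Krt84: ttttaatgTTTATAggtggcct
Krtap7-1 and Krt32, not shown, also carry both motifs and were not called (log2 fold changes 0.31 and 0.01 without SA library 0). Krtap1-5, which carries both, was the single member of its family to be called: it lay at 262 to 5187 FPKM in SA libraries 1 to 5, at 37244 in SA library 0 and at 6440 to 18501 in MA. The other 7 keratin-associated proteins had log2 fold changes of 0.31 to 1.19 without SA library 0 and overlapped widely. Among them was Krtap7-1, the most abundant row of the tissue, at 63422 to 187866 in SA libraries 1 to 5, 179168 in SA library 0 and 63960 to 204277 in MA.

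**Figure D3:**
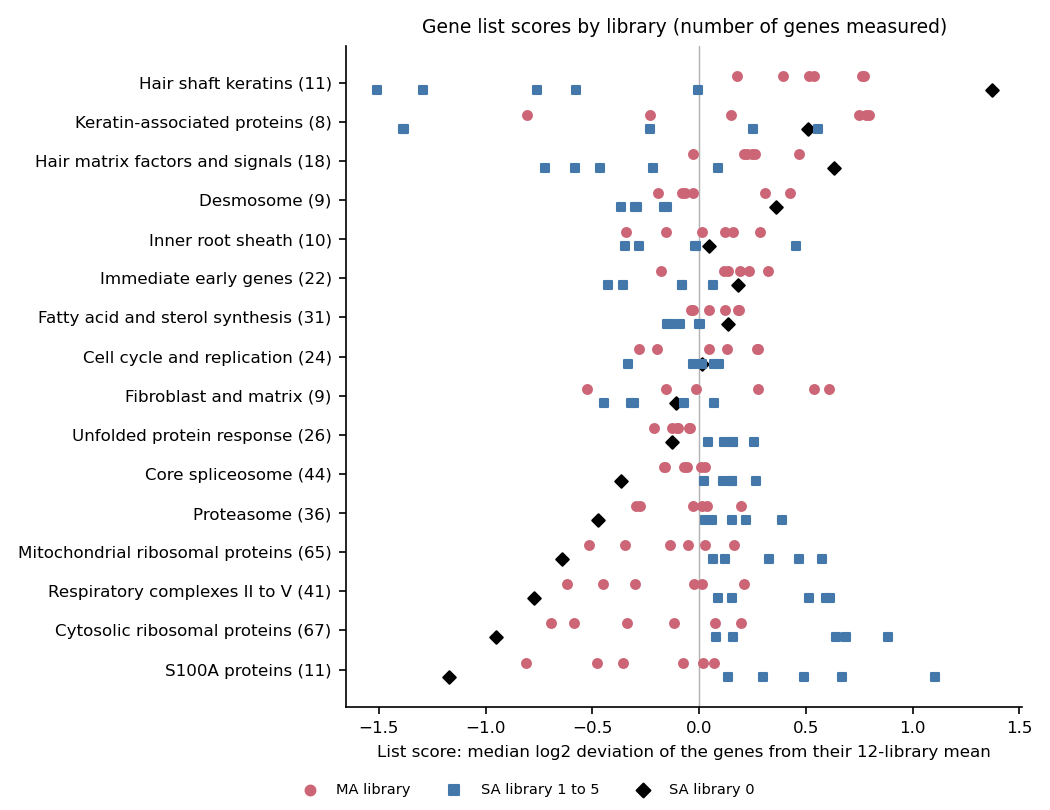
List scores (x axis, log2 units) of 16 gene lists in each whisker follicle library, with the number of genes measured in parentheses; circles are MA, squares SA libraries 1 to 5 and diamonds SA library 0. For hair shaft keratins SA library 0 lies at 1.37 and for cytosolic ribosomal proteins at -0.95, at the outer end of the MA side in both, while cell cycle scores overlap.

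Of 18 matrix transcription factors and signals, 7 were called higher and none lower (7.4% and 5.94% of all genes were). The median log2 fold change was 0.29 with 12 libraries and 0.44 without SA library 0. Foxn1, the factor lost in the nude mutation, was at 6.62 to 35.97 in SA libraries 1 to 5 (median 14.6), at 198 in SA library 0 and at 37.8 to 102 in MA (median 62.2). SA library 0 was the highest of all 12, and every MA library was above SA libraries 1 to 5. Lef1, the nuclear partner of beta-catenin, was at 0.187 to 6.86, at 19.9 and at 6.71 to 23.1, and 2 MA libraries lay below the highest of SA libraries 1 to 5. The signals Bmp2 and Bmp4 were at 1.76 to 10.7 and 14.9 to 62.1 in SA libraries 1 to 5, at 38.4 and 133 in SA library 0 and at 5.87 to 22.5 and 49.6 to 117 in MA, and their log2 fold changes were 1.504 and 1.34 without SA library 0. The factors Gata3 and Prdm1 and the vitamin D receptor Vdr were the other members called, with log2 fold changes of 1.11, 0.74 and 1.38 there and adjusted p of 0.465 to 0.520 with 12 libraries. Of 24 cell cycle and replication genes, which mark dividing matrix cells, none was called, and their median log2 fold change was 0.11 with 12 libraries and 0.13 without SA library 0.

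The layers around the shaft differed gene by gene. Of 10 inner root sheath genes, Krt26 and the transglutaminase Tgm3 were called higher, while the median of the list was 0.03 with 12 libraries and 0.02 without SA library 0 and its sign turned when SA library 4, SA library 5 or MA library 3 was left out of the 12. Krt71, the most abundant of them, was at 14383 to 18296 in SA libraries 1 to 5, at 9548 in SA library 0 and at 7172 to 13897 in MA (log2 fold change -0.58, adjusted p = 0.0755). Among 9 outer root sheath and epidermal keratins, Krt75 of the companion layer and Krt80 were called higher, at 357 to 980 and 33.7 to 145 in MA against 122 to 287 and 1.77 to 38.2 in SA libraries 1 to 5. SA library 0 held 634 and 253. Krt14 and Krt17, which mark the basal and outer sheath cells, were not called (log2 fold changes -0.48 and -0.31). Of 9 cornified envelope genes, involucrin (Ivl) and the lipoxygenase Alox12b were called higher. Alox12b averaged 0.765 over SA libraries 1 to 5, so it passed the limit on mean FPKM only through MA and SA library 0. The desmosomal cadherins Dsc3, Dsg3 and Dsg4 were called higher among 9 desmosome genes, and SA library 0 had the highest value of all 12 libraries in each, at 98.7, 33.1 and 110 against at most 69.5, 29.8 and 41.8 in MA.

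S100A genes, which encode small calcium-binding proteins, lay the other way. None of 11 was called higher and 7 were called lower, and all 11 were below 0 without SA library 0 (51.8% of all genes were). The median log2 fold change was -0.63 with 12 libraries and -0.93 without SA library 0, and -0.34 and -0.53 after quantile normalization. S100a6 was at 23589 to 58146 in SA libraries 1 to 5 (median 35304), at 8712 in SA library 0 and at 11109 to 21305 in MA (median 16963). S100a16 was at 1765 to 3570, at 688 and at 883 to 1545, and S100a13 at 13.2 to 46.6, at 8.36 and at 7.05 to 13.2. In all 3, every MA library was below SA libraries 1 to 5 and SA library 0 lay with MA or beyond it. S100a3, which is stored in the hair cuticle, lay in the same order without passing (16305 to 22510 in MA and 25656 to 35135 in SA libraries 1 to 5, adjusted p = 0.0608).

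**Figure D4:**
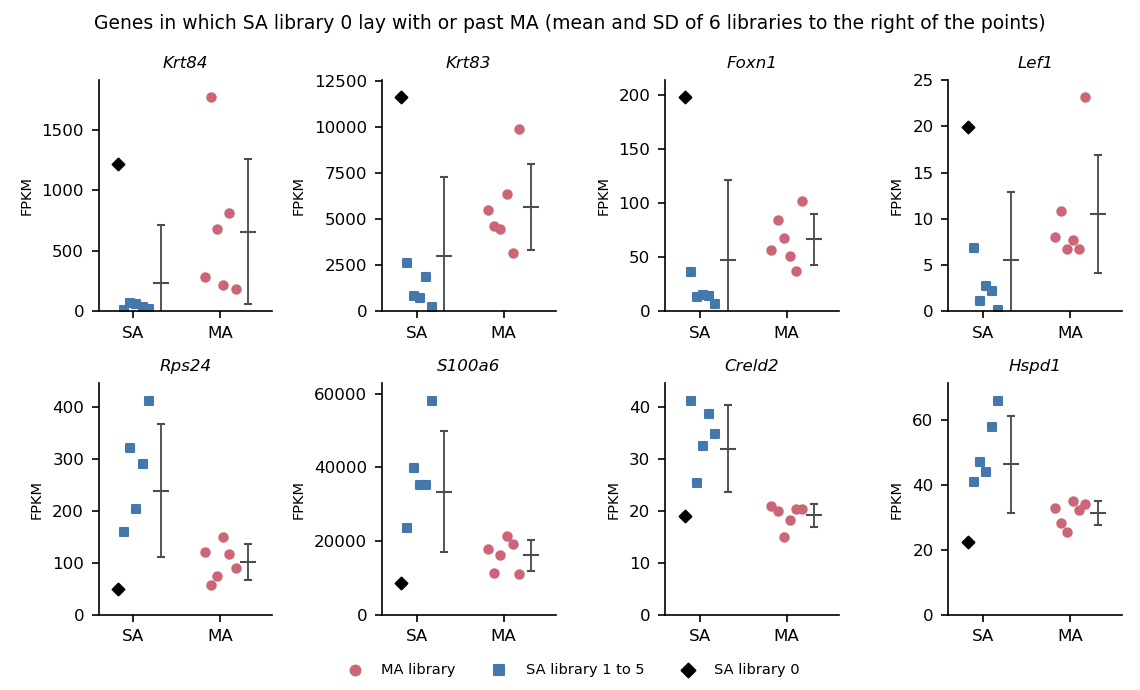
FPKM (linear axes from 0) of 8 genes in the 6 SA and 6 MA whisker follicle libraries, 1 point per library, with the mean and SD of each group of 6 beside the points and SD bars not drawn below 0. In each panel the black SA library 0 lies with MA or past it, for instance at 198 for Foxn1 against 6.62 to 35.97 in SA libraries 1 to 5 and 37.8 to 102 in MA.

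Genes of the translation and respiration machinery made the largest group of lower calls. Of 67 cytosolic ribosomal proteins, 38 were called lower and none higher, and 63 were below 0 (background 5.94% called lower and 51.8% below 0 without SA library 0). The median log2 fold change was -0.49 with 12 libraries and -0.72 without SA library 0, and -0.30 and -0.42 after quantile normalization. With 12 libraries, 11 of the 67 had an unadjusted p under 0.05 and all of these were lower. The list score was -0.69 to 0.20 in MA, 0.08 to 0.89 in SA libraries 1 to 5 and -0.95 in SA library 0, so MA and SA overlapped on it. Rps24, of the small subunit, was at 159 to 412 FPKM in SA libraries 1 to 5 (median 289), at 49.6 in SA library 0 and at 57.8 to 150 in MA (median 103). Rpl13 was at 273 to 890, at 92.1 and at 130 to 310. Ribosomal protein genes have many processed copies, and Rps9 stands on 2 rows, so the level of a single gene is uncertain.

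The mitochondrial counterparts lay the same way. Of 65 mitochondrial ribosomal proteins, 21 were called lower and 1, Mrpl15, was called higher (7.75 to 11.8 in MA, 2.10 to 6.93 in SA libraries 1 to 5 and 13.6 in SA library 0). Mrpl13 had the smallest adjusted p of those named, 0.0137, at 88.7 to 108 in SA libraries 1 to 5, 50.6 in SA library 0 and 48.6 to 72.8 in MA. Of 32 subunits of respiratory complex I, 12 were called lower, among them Ndufa2 and Ndufb3, and the core subunit Ndufs1 was called higher (22.4 to 33.7 in MA, 11.7 to 20.1 in SA libraries 1 to 5, 37.6 in SA library 0). Of 41 subunits of complexes II to V, 19 were called lower and none higher. The medians of the 3 lists were -0.32, -0.34 and -0.43 with 12 libraries and -0.51, -0.53 and -0.64 without SA library 0. After quantile normalization those of complex I and of complexes II to V were -0.16 and -0.25 with 12 libraries and -0.28 and -0.33 without SA library 0. With bins of gene span set equal, that of mitochondrial ribosomal proteins was -0.21 with 12 libraries and -0.34 without SA library 0, and that of complexes II to V was -0.28 and -0.39.

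The proteasome, which degrades ubiquitin-tagged proteins, had 6 of 36 subunits called lower and none higher (5.94% and 7.4% of all genes were). Its median was -0.13 with 12 libraries and -0.23 without SA library 0. After quantile normalization the median was 0.04 with 12 libraries. Psmb1, a subunit of the core, was at 657 to 1362 in SA libraries 1 to 5, at 323 in SA library 0 and at 409 to 654 in MA. The antioxidant enzymes Sod1, Prdx1, Gpx4 and Glrx5 were the 4 of 24 called lower (5.94% of all genes were). Of 60 translation factors, 5 were called higher and 7 lower, beside 7.4% and 5.94% of all genes. Eif3a and Eef1a1 were among the first (log2 fold changes 1.02 and 1.03 without SA library 0) and Eef1b2 and Eif3e among the second (-0.93 and -0.93).

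Splicing genes were mostly on the lower side. Of 44 core spliceosome genes, 9 were called lower and 1, Snrnp70, was called higher, beside 5.94% and 7.4% of all genes. With 12 libraries and without SA library 0, 33 were below 0 (51.7% and 51.8% of all genes were). The median was -0.13 and -0.22. Lsm5, of the ring that binds U6 RNA, was at 22.2 to 49.0 in SA libraries 1 to 5, at 8.10 in SA library 0 and at 9.23 to 19.2 in MA. Of 32 genes in a list of serine- and arginine-rich nuclear proteins, 6 were called lower and none higher, beside 5.94% and 7.4% of all genes. Rsrp1 and Ogt are counted among these, although Ogt is a transferase and not such a protein. The list was chosen with earlier results of these data known, so its calls and score are a description only. Their list score was -0.16 to -0.01 in MA, 0.01 to 0.19 in SA libraries 1 to 5 and 0.13 in SA library 0, so the groups of 6 did not overlap on it. Single members differed in this. Luc7l3, of the U1 particle, was at 11.8 to 13.5 in SA libraries 1 to 5, at 8.25 in SA library 0 and at 4.24 to 9.02 in MA, so that SA library 0 lay inside the MA range. Arglu1 was at 61.2 to 67.4, at 35.1 and at 27.8 to 44.9, and the splicing regulator Tra2b was at 28.2 to 59.3, at 17.2 and at 16.7 to 26.6. Their log2 fold changes with 12 libraries were -0.83, -0.66 and -0.81.

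The unfolded protein response, in which the sensors Ern1, Atf6 and Perk answer misfolded protein in the endoplasmic reticulum, was divided. Of 26 genes, 5 were called lower (Creld2, Sdf2l1, Xbp1, Ddit3 and Sec61b) and 3 higher (Atf6, Ern1 and Trib3), and 19 were below 0 with 12 libraries. Among all genes these shares were 5.94%, 7.4% and 51.7%. The median of the list was -0.14 with 12 libraries and -0.22 without SA library 0, and -0.08 and -0.12 after quantile normalization. Creld2, a secreted target of this response, was at 25.4 to 41.2 in SA libraries 1 to 5 (median 34.7), at 19.1 in SA library 0 and at 14.9 to 20.9 in MA (median 20.1). Xbp1 was at 98.4 to 138, at 81.2 and at 62.9 to 88.5. SA library 0 lay inside the MA range in both. The sensor kinase Ern1, which splices Xbp1 RNA, was at 0 to 0.267 in SA libraries 1 to 5, at 7.88 in SA library 0 and at 0.473 to 2.41 in MA. It passed the limit on mean FPKM only through MA and SA library 0, which favours a higher call. Hspa5, the chaperone at the head of the response, was not called (171 to 242 in MA, 211 to 374 in SA libraries 1 to 5 and 222 in SA library 0).

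The promoter element of this response is shown for 4 genes of the list that differ in their calls. The element ERSE, spelled CCAAT and, after 9 bases of any kind, CCACG, and searched on both strands of the 250 bases before the RefSeq start (GRCr8), stood in 7 of the 21 list members matched and in 0.0657% of all promoters. Capitals mark its fixed letters. The windows are from chr7:121789231-121789265 for Creld2, chr14:84604550-84604584 for Xbp1, chr19:40213127-40213161 for Calr and chr3:38452965-38452999 for Hspa5, all on the plus strand.
Creld2: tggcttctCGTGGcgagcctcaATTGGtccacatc
Xbp1: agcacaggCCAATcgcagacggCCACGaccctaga
Calr: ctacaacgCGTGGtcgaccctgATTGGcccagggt
Hspa5: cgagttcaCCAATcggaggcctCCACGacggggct
The log2 fold changes of these 4 without SA library 0 were -0.81, -0.64, -0.49 and -0.28, with adjusted p of 0.0137, 0.0173, 0.0203 and 0.175. Calr passed the adjusted p but not the fold. Of the other carriers, Hsp90b1, Canx and Dnajc3 were not called. Genes with the same letters thus ranged from called to not called.

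Of 22 cytosolic and mitochondrial chaperones, 3 were called lower (Hspd1, Hspe1 and Hspa1a) and 2 higher (Hspb8 and Hspa8), beside 5.94% and 7.4% of all genes. The median was -0.16 with 12 libraries and -0.19 without SA library 0 (-0.02 and -0.05 after quantile normalization). Hspd1 and Hspe1 encode the barrel and lid of the mitochondrial chaperonin and are read in opposite directions from a shared promoter. Hspd1 was at 41.0 to 66.0 in SA libraries 1 to 5, at 22.4 in SA library 0 and at 25.4 to 35.1 in MA. Hspe1 was at 182 to 275, at 91.3 and at 106 to 171. Their log2 fold changes were -0.67 and -0.68 without SA library 0 and -0.48 and -0.46 with 12 libraries, so the pair differed by nearly equal amounts. The shared stretch is shown as read toward each gene, from chr9:64084254-64084287 (GRCr8, minus strand for Hspd1 and plus strand for Hspe1), with the fixed letters of the heat shock element, which are GAA, TTC and GAA with 2 bases of any kind between them and which overlap on both strands here, in capitals. It stood in 4 of 18 matched members of the list and in 0.663% of all promoters.
Hspd1: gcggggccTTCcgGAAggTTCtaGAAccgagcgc
Hspe1: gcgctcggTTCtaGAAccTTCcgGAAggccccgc
Hspa8 and Hsph1, the other carriers, had log2 fold changes of 0.59 and -0.17 without SA library 0. The row of Hspa8 was low, at 0.266 to 2.03 FPKM over all libraries, and this gene has many copies in the genome.

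Of 31 lipid synthesis genes, 22 were above 0 with 12 libraries (48.3% of all genes were). Without SA library 0, 6 were called higher and none lower, beside 7.4% and 5.94% of all genes. Among the 6 were the sterol reductase Dhcr7, the cyclase Lss, the acetyltransferase Acat2 and the elongase Elovl5. The median was 0.16 with 12 libraries and 0.17 without SA library 0. Dhcr7 was at 25.95 to 35.6 in SA libraries 1 to 5, at 46.3 in SA library 0 and at 36.5 to 59.2 in MA. Fasn and the elongase Elovl1 were below 0, at -0.43 and -0.47 without SA library 0, with adjusted p of 0.0203 and 0.0181 and a fold under the limit.

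Most calls among genes that respond to activity, stress hormone or time of day were higher, while the clock and glucocorticoid lists as a whole did not lean to that side. Of 22 immediate early genes, 5 were called higher (Egr1, Egr3, Fosl1, Fosl2 and Klf4) and none lower, beside 7.4% and 5.94% of all genes, with a median of 0.23 with 12 libraries (0.38 with bins of gene span set equal) and 0.34 without SA library 0. Egr1 was at 1.27 to 8.61 in SA libraries 1 to 5, at 29.97 in SA library 0 and at 5.94 to 21.4 in MA. Klf4, a factor of epithelial differentiation, was at 76.8 to 119, at 194 and at 142 to 191. Of 15 clock genes, Per1 and Bhlhe40 were called higher and none lower, while 13.3% of all genes were called in either direction. The median of the list was 0.02 with and without SA library 0, and 8 of the 15 were above 0 and 7 below. Per1, a core repressor of the clock, was at 1.35 to 6.47 in SA libraries 1 to 5 (median 2.87), at 7.94 in SA library 0 and at 6.43 to 15.7 in MA (median 6.87). A single MA library lay below the highest of SA libraries 1 to 5, and its log2 fold change was 0.93 with 12 libraries (limma adjusted p = 0.465) and 1.10 without SA library 0 (adjusted p = 0.0260). Per1 is also among 14 glucocorticoid-induced genes, of which Ddit4 and Nfkbia were called higher too and Cebpb lower. Of these 14, 6 were above 0 and 8 below, with 12 libraries and without SA library 0. Their median was -0.03 with 12 libraries and -0.11 without SA library 0. The experiments were run in the light phase of the day, and the hour of collection was not given in the sources used here.

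The paper names App, Uchl1, Ap2a1, Per1, Ddit4 and Tagln for this tissue, chosen there on these libraries. It also reports Western blot and RT-PCR checks of its key genes, which are not part of the values here. Its DEGs came from another program, Cuffdiff, and most of those in this tissue were lower in MA. Here limma called none with 12 libraries. Without SA library 0, 55.5% of the 1219 were higher, but this direction depended on the limits used. The share was 47.2% by adjusted p alone, 44.7% at a mean of at least 5 FPKM and 28.1% when SA library 2 was also left out. Under the other settings it was 50.3% to 68.1%. The 2 programs and their limits differ, so the directions cannot be compared closely. App, the amyloid precursor protein, was at 95.6 to 175 in SA libraries 1 to 5 (median 111), at 244 in SA library 0 and at 174 to 348 in MA (median 202). Its log2 fold change was 0.72 with 12 libraries (limma adjusted p = 0.465) and 0.88 without SA library 0 (adjusted p = 0.0240). Ap2a1, a subunit of the adaptor that loads clathrin-coated vesicles, was at 8.90 to 21.8, at 35.8 and at 21.5 to 34.5, with log2 fold changes of 0.67 and 0.87 (adjusted p = 0.465 and 0.0208). The ubiquitin hydrolase Uchl1 was at 4.09 to 39.2, at 42.5 and at 12.5 to 148, and overlapped (log2 fold changes 1.16 and 1.39, adjusted p = 0.465 and 0.111). Tagln, an actin-binding protein of smooth muscle, was at 22.4 to 67.9, at 68.9 and at 14.9 to 137 (0.49 and 0.64, adjusted p = 0.606 and 0.344). Of 14 genes of App and its processing, the proteases Adam9, Adam10 and Psen2 were called higher with App, and Psenen, a small subunit of gamma-secretase, was called lower. Of 24 clathrin coat and vacuolar ATPase genes, 2 were called higher and 3 lower.

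Lists of other cell types were small, and almost none of their members were called. No member was called among 9 of fibroblasts and matrix, 6 of melanocytes, 7 of skeletal muscle, 7 of smooth muscle, 3 of erythrocytes, 9 of leukocytes, 5 of Schwann cells and 1 of Merkel cells, and no endothelial or mast cell gene reached a mean FPKM of 1. Tyrp1, an enzyme of pigment synthesis, was at 3.94 to 11.7 in SA libraries 1 to 5, at 26.6 in SA library 0 and at 4.67 to 26.3 in MA (adjusted p = 0.189 without SA library 0). Fabp4, a fatty acid carrier that is also abundant in adipocytes, was called lower, at 11020 to 16622 in SA libraries 1 to 5, 2871 in SA library 0 and 2959 to 10283 in MA, while the adipocyte genes Adipoq and Plin1 were listed at 0 in all 12 libraries. The 3 erythrocyte genes had a median of -0.99 with 12 libraries and -1.59 without SA library 0, and Hbb, a globin, ranged from 0.3925 to 167.2 over them. Among 13 interferon response genes 1, Stat2, was called higher. Of 9 large scaffold proteins 1, Sptbn1, was called higher and none lower, beside 7.4% and 5.94% of all genes. With 12 libraries, 4 of the 9 were lower at an unadjusted limma p under 0.05 and 0 higher, beside 5.18% and 5.25% of all genes. The median of this list was -0.09 with 12 libraries and -0.04 without SA library 0. Of 6 linker and replacement histones, H1f0 was called higher and H2afv lower.

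Outside these lists, the smallest p-values among DEGs belonged to genes of varied roles, in most of which SA library 0 lay at or beyond MA. Ptger3, a receptor of prostaglandin E2, was at 0.228 to 0.854 in SA libraries 1 to 5, at 2.31 in SA library 0 and at 2.02 to 3.06 in MA, with a log2 fold change of 1.13 (adjusted p = 0.0121). The factor Foxp1 was at 12.7 to 21.4, at 43.2 and at 27.7 to 37.4. Pmaip1 and Bmf, which start apoptosis through BCL2 family proteins, were called higher, and Pmaip1 was listed at 0 in all of SA libraries 1 to 5, at 7.94 in SA library 0 and at 0.919 to 4.14 in MA. Ptger3, Bmf and Pmaip1 averaged 0.592, 0.782 and 0 over SA libraries 1 to 5. They passed the limit on mean FPKM only through MA and SA library 0, which favours a higher call. The membrane protein Emp1 was at 90.0 to 147, at 443 and at 223 to 461. On the lower side, the actin regulator Gmfg was at 72.1 to 128 in SA libraries 1 to 5, at 25.2 in SA library 0 and at 37.5 to 50.5 in MA (log2 fold change -1.13, adjusted p = 0.0121). Gas5, a host gene of small nucleolar RNAs whose RNA starts with a terminal pyrimidine tract as those of ribosomal proteins do, was at 69.3 to 97.2, at 26.2 and at 35.2 to 59.5. The beta-defensin Defb1 was at 519 to 674, at 161 and at 235 to 404. Among DEGs with a mean of at least 10 FPKM, the largest log2 fold changes without SA library 0 after Krt84 were those of Krt80 (2.84), Krtap1-5 (2.75) and Mreg (2.598), a melanosome-transfer protein. On the lower side, apart from the joined keratin entry, they were those of Rps9 (-3.07 and -1.85 for its 2 rows) and Usmg5 (-1.59).

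The size of the gene moved with these differences. For 8425 of the members (92.2%) a genomic span was found in RefSeq of GRCr8, and they were ranked by it into 10 bins of about 843 genes. With 12 libraries, the median log2 fold change went from -0.17 in the shortest bin (median span 2624 bases) to 0.09 in the longest (152236 bases). Without SA library 0 it went from -0.28 to 0.17. SA library 0 minus the mean of SA libraries 1 to 5 went from -0.67 to 0.47 over the same bins. Each step from bin to bin was upward in SA library 0. The part of gene length in the calls was not tested, and transcript lengths were not used here. The median span was 21150 bases over all of these genes, 3131 over cytosolic ribosomal proteins, 4844 over S100A genes, 6650 over hair shaft keratins and 32126 over desmosome genes. After the medians of the bins were set equal, the medians without SA library 0 were -0.45 for cytosolic ribosomal proteins, -0.75 for S100A genes, 1.91 for hair shaft keratins and 0.65 for matrix factors and signals.

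**Figure D5:**
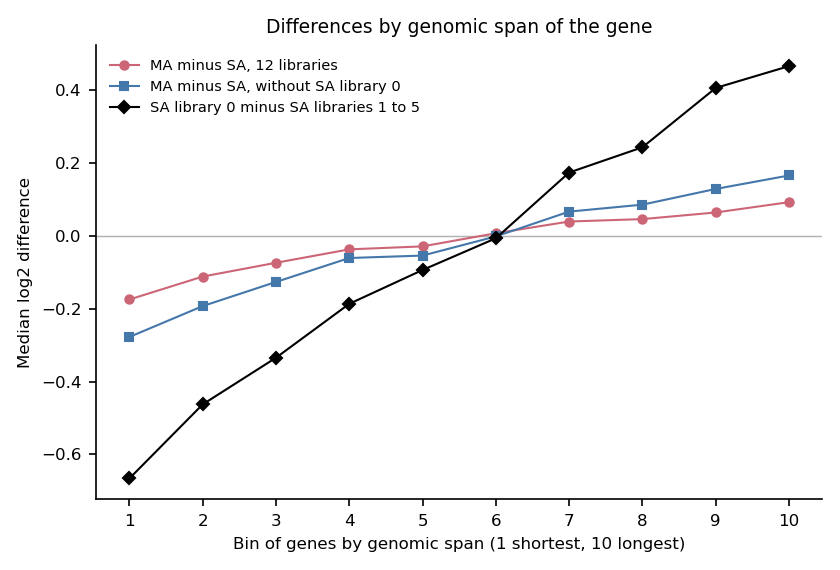
Median log2 difference (y axis) in 10 bins of 8425 genes by genomic span (x axis, 1 the shortest) for MA minus SA with 12 libraries, for MA minus SA without SA library 0, and for SA library 0 minus SA libraries 1 to 5. The differences go from -0.17 to 0.09, from -0.28 to 0.17 and from -0.67 to 0.47.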

How the data were processed

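Whisker follicle RNA of 6 MA and 6 SA rats was compared. The authors deposited FPKM for 17711 rows, made from poly(A)-selected, paired-end reads. Both the paper and the submitters' processing notes give rn6 and Cufflinks (version 2.2.1 in the notes), but the aligner is TopHat2, after Cutadapt, in the former and STAR (2.6.0c), after bcl2fastq, in the latter. The gene annotation used, and whether libraries were scaled to each other, is not given in the sources used here. FPKM is relative, so an abundant RNA lowers the FPKM of others. The deposited table holds no read counts, so counting error is unknown.

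Rows with a mean FPKM of at least 1 over the 12 libraries were fitted on log2(FPKM + 1) with limma 3.58.1 (R 4.3.3; two-sided, moderated with an intensity trend, adjusted after Benjamini-Hochberg over all 9138 rows), with 12 libraries and without SA library 0. Low genes change by more than this scale shows. The limit on mean FPKM was taken over all 12 libraries in both fits. A gene below it in 1 group can pass only through the libraries where it is high, which favours its call. A DEG had an adjusted p below 0.05 with a fold of 1.5 or more. Library measures were compared by exact permutation tests over libraries. Alternatives changed the pseudocount, filter, scaling, trend, weights or call, or left out 1 library. Scripts were tested on simulated data. Symbols of 98.1% of members were found in RefSeq (GRCr8), which gave names, gene spans and promoters.

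The members, the gene lists and the genes to name were chosen with earlier results of these data known. Named were the 10 smallest p with 12 libraries; the 12 smallest p and the 8 largest changes at a mean FPKM of at least 10 in each direction without SA library 0, of which examples are given and some genes are not reported here; the genes the paper names; up to 4 members of each list with the smallest p; the most abundant rows; and the markers. Genes with groups of 6 that do not overlap, other list members and motifs were chosen after their values were seen.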

Additional observations from a re-analysis of the deposited data

Results flagged for a closer look

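In each group of 6 libraries, the gap between the most extreme library and its nearest neighbour was divided by the whole range of the group, and a ratio above 0.625 (Dixon's test at 95%) marked a library far from the others. Chance marks about 1 in 20 groups when items are not chosen beforehand. The genes tested were those reported here, many of them picked in the fit without SA library 0. That choice favours genes in which SA libraries 1 to 5 lie close together, so a far SA library 0 is marked more readily. The tally of marks in genes therefore cannot be set against chance. Within it, SA library 0 accounted for most of the marks. Among library measures it had the most rows with an FPKM of at least 1 (ratio 0.652). Among list scores it was highest for the desmosome (0.702) and lowest for the erythrocyte (0.698) and the adipocyte and sebocyte (0.625) lists. SA library 1 was lowest for cell cycle (0.721) and smooth muscle (0.702), and SA library 5 was highest for the Schwann cell list (0.699).

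SA library 0 was far above the other SA libraries in many genes. Among hair and epidermal genes the ratio was 0.749 for Krt26, 0.812 for Krt36, 0.894 for Krt39, 0.678 for Krt75, 0.855 for Krt80, 0.791 for Krt83, 0.952 for Krt84, 0.753 for Krt85, 0.867 for Krtap1-5, 0.951 for Dsc3, 0.92 for Dsg3, 0.946 for Dsg4, 0.76 for Alox12b and 0.828 for Mreg. Among transcription factors and signals the ratio was 0.847 for Foxn1, 0.716 for Foxp1, 0.661 for Lef1, 0.755 for Bmp2, 0.918 for Vdr, 0.64 for Klf4, 0.744 for Egr1, 0.664 for Egr3, 0.706 for Fosl1, 0.645 for Fosl2, 0.676 for Atf6, 0.687 for Bhlhe40, 0.753 for Stat2 and 0.699 for Ptger3. Among other genes it was 0.726 for Adam10, 0.734 for Adam9, 0.896 for Bmf, 0.851 for Elovl5, 0.839 for Emp1, 0.966 for Ern1, 0.637 for Hspb8, 0.698 for Lss, 0.677 for Ndufs1, 1 for Pmaip1, 0.863 for Sptbn1 and 0.658 for Tyrp1. It was far below the other SA libraries in Arglu1 (0.808), Defb1 (0.698), Luc7l3 (0.677) and Mrpl13 (0.66).

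Other libraries stood apart in single genes. MA library 2 was highest in Per1 (0.629). MA library 3 was highest in Ddit4 (0.75). MA library 4 was highest in Ddit3 (0.645), highest in Hbb (0.73), lowest in Hspa8 (0.767) and highest in Rps9 (second row) (0.654). MA library 5 was highest in Hspb8 (0.679), highest in Lef1 (0.748) and highest in Mrpl15 (0.778). SA library 1 was highest in Hspa5 (0.643). SA library 5 was highest in Lurap1 (0.636), highest in S100a13 (0.634) and lowest in Sf3b4 (0.707). The reason that any of these libraries stood apart was not tested.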

How the results depend on the processing

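With 12 libraries the number of DEGs was 0 by adjusted p alone, without a filter or a trend, with genes that averaged 5 FPKM or more, with a pseudocount of 0.1 or 0.5, with a common median, with quantile normalization, with folds taken from mean FPKM and with bins of gene span centred (a setting chosen after seeing the data). It was 1160 with weighted libraries, 1017 of them among the 1219 called without SA library 0. Leaving out 1 library gave 0 to 1219 DEGs, with the highest number without SA library 0 and 0 without any other. Without SA library 0 the number was 1954 by adjusted p alone and 897 to 1499 under the other settings, of which weighted libraries gave the highest and no filter the lowest. Leaving out a further library gave 96 to 1800, and without SA library 2, 92 of the 96 were among the 1219.

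Of 118 named DEGs without SA library 0, 76 lost the call without SA library 2, 51 without SA library 5, 37 without SA library 4, 24 without MA library 2, 23 without MA library 1 and 13 without MA library 5, 18 under quantile normalization and 15 with bins of gene span centred. No named gene changed sign past the threshold under the settings run. Medians of the gene lists changed sign under at least 1 setting, with 12 libraries or without SA library 0, for the inner and outer root sheath, cornified envelope, proteasome, clathrin coat and vacuolar ATPase, translation factor, clock, glucocorticoid, histone and scaffold lists, and for the lists of cell cycle genes, skeletal and smooth muscle, leukocytes and Merkel cells. Those of hair shaft keratins (0.97 to 1.77 with 12 libraries), matrix factors (0.17 to 0.44), cytosolic ribosomal proteins (-0.72 to -0.30) and S100A proteins (-0.93 to -0.34) did not.

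No paired analysis was possible because the columns do not carry the rat number of the labels. Depth behind each value is unknown, which limits genes at a few FPKM most. What sets SA library 0 apart was not tested.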
